A study of Mus musculus with 85 samples.

Results

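Assembled loci without a gene symbol were examined in hippocampal RNA sequencing of 85 mice. The deposited table has 56090 rows, of which 14100 carry only an assembly number (written MSTRG followed by digits) and no symbol. The 7333 of these with at least 1 FPKM (fragments normalised to transcript length and to the mapped fragments of the library) in at least 10 libraries are described here. They stand beside 13964 rows with a symbol that passed the same filter after rows of equal symbol were summed. The loci were chosen by their FPKM in these libraries, so their level is given as a description, with no test.

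Each library came from 1 mouse aged 8 months. Controls were C57BL/6J mice and AD mice were of the APPswePSEN1dE9 transgenic strain, in both sexes. The feed was standard or methionine-restricted. Males formed the groups MWT (control, standard feed, n = 11), MAD (AD, standard feed, n = 11), MWTMR (control, restricted feed, n = 10) and MADMR (AD, restricted feed, n = 11). Females formed the corresponding groups FWT (n = 10), FAD (n = 11), FWTMR (n = 10) and FADMR (n = 11). Litter, cage, batch and date are not given in the labels.

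StringTie joins overlapping aligned reads into transcripts and gives every assembled locus a running number, whether or not it meets an annotated gene. Loci that meet none can come from long non-coding RNA, from introns of unspliced transcripts, from antisense transcription or from extensions of known genes. In this transgenic strain the promoter of Prnp, the mouse prion protein gene, drives a chimeric APP and a mutant presenilin.

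The table gives no coordinates, but its numbers follow the genome. Of 21306 rows with a symbol whose numbered neighbours lie on 1 chromosome in RefSeq GRCm38.p6, 21299 (99.9671%) lie on that chromosome too, and 17554 (82.3899%) start between the starts of those neighbours. The position of a locus is therefore given by the nearest rows with a symbol on either side by number. It is inferred, and no gene name is assigned to any locus.

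The sequence before the Prnp start is shown because the locus with the clearest genotype difference, MSTRG.4241, is numbered just before Prnp. It spans chr2:131909678-131909927 on the plus strand of GRCm38.p6, from RefSeq. Capitals mark GC boxes (GGGCGG or CCGCCC) and CCAAT boxes (CCAAT or ATTGG), searched on both strands, and no 2 of them overlap.
Prnp upstream: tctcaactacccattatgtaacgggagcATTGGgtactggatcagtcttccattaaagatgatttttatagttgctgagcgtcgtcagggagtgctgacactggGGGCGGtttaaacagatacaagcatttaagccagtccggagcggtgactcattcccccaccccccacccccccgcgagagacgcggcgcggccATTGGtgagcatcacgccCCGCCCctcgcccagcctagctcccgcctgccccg
The 250 bases hold 2 copies of each motif. Among 32851 promoter windows of this length, 32.7% hold a GC box and 33.8% a CCAAT box, so neither motif is rare.

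Most loci were low. Their mean level had a median of 2.67 FPKM, with 5% below 0.727 and 5% above 30.5 FPKM, against a median of 9.65 FPKM for rows with a symbol. A mean of at least 10 FPKM was reached by 1237 loci (16.9%) and by 6864 rows with a symbol (49.2%). In 2685 loci (36.6%) every library was at 1 FPKM or more, and in 620 (8.46%) only 10 to 20 libraries were. Just inside the filter, MSTRG.28922, MSTRG.442 and MSTRG.25911 had 10 libraries at 1 FPKM or more, the lowest of them at 1.0001, 1.00042 and 1.00048 FPKM. Just outside, MSTRG.31810, MSTRG.27627 and MSTRG.10105 had 9, with the next library at 0.999921, 0.999763 and 0.999575 FPKM.

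A few loci were among the most abundant rows of the table. MSTRG.269, numbered between Tubb4b-ps2 and Gm6473 on chromosome 1, ran from 1240 to 12800 FPKM with a median of 4400. It was present in every library and varied widely within a group, in MWT from 1320 to 12800 FPKM. MSTRG.33877 ran from 295 to 1300 FPKM, MSTRG.7142 from 180 to 1340, MSTRG.25281 from 187 to 807, MSTRG.14906 from 219 to 804 and MSTRG.35125 from 112 to 783. These 6 loci were above 100 FPKM in all 85 mice, although their levels differed several-fold between mice of 1 group.

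Other abundant loci were listed at 0 in single mice. MSTRG.72, numbered between Sntg1 and Gm15452, had a median of 1800 FPKM, was listed at 0 in 5 libraries and was at least at 850 FPKM in the other 80. MSTRG.25037 had a median of 385 FPKM, was listed at 0 in 4 libraries and was at 187 FPKM or more elsewhere. MSTRG.7986 (median 847 FPKM) was listed at 0 in FWT replicate 10, and MSTRG.6272 (median 466 FPKM) was under 10% of its median in 25 libraries. No intermediate level joined the high and the zero values of MSTRG.72 and MSTRG.25037.

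This on and off pattern was not rare. Of the 7333, 608 (8.29%) were at or under 0.05 FPKM in at least 10 libraries and at or above 1 FPKM in at least 10 others, against 210 of 13964 rows with a symbol (1.5%). A median of at least 20 FPKM together with a library at exactly 0 was found for 126 loci and 15 rows with a symbol. Among the 15 were Usp39, a splicing gene, and Lats1, a Hippo pathway gene, picked by hand and listed at 0 in 2 and 9 libraries. Both are used by every cell and had medians of 21.9 and 34.1 FPKM. An exact 0 is therefore not read as absence here, and what it stands for at the loci was not tested. MSTRG.12749 was listed at 0 in 18 libraries and was at 5 FPKM or more in all other 67, up to 832. MSTRG.34186 was listed at 0 in 16 libraries and reached 702 FPKM. MSTRG.34076 was listed at 0 in 57 libraries and reached 339 FPKM. Each of the 3 was 0 in some mice and high in others, with within-group standard deviations (SD) of 3.57, 3.48 and 3.50 on the log2(scaled FPKM + 1) scale.

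**Figure D1:**
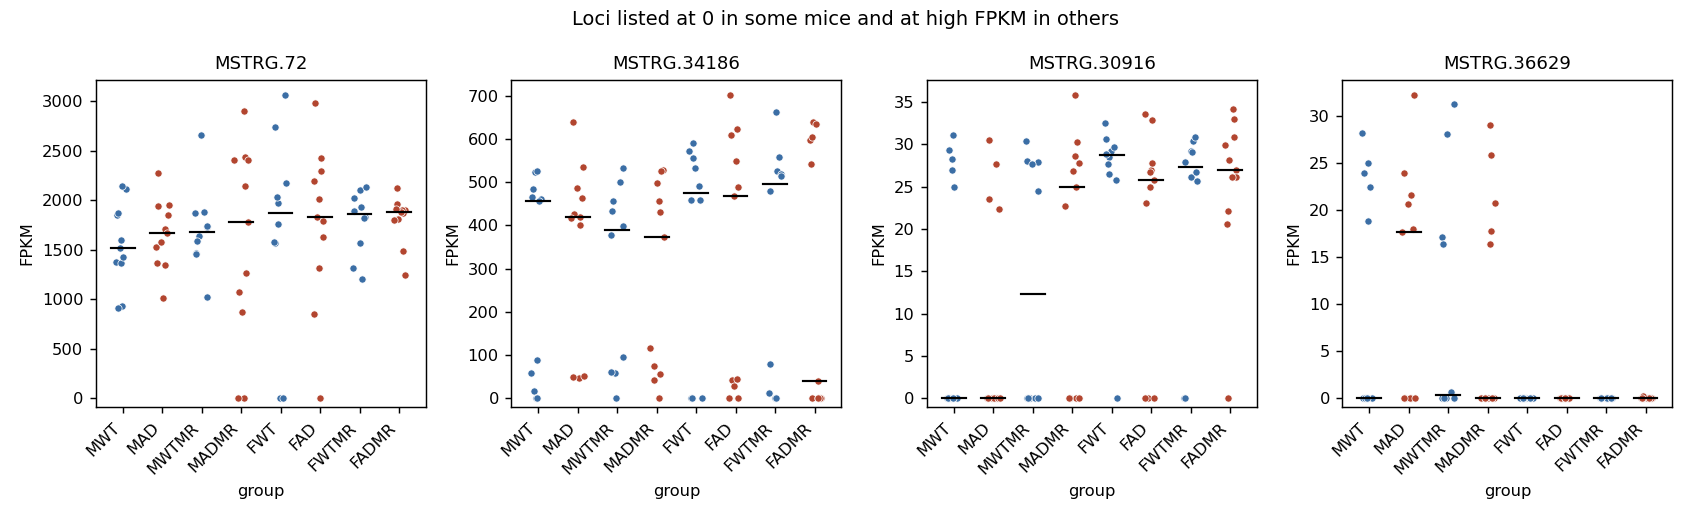
FPKM of 4 loci without symbol in each mouse (points, blue for control and red for AD mice) by group, with the group median as a black line. MSTRG.72 is at 0 in 5 mice and at 850 FPKM or more in the others, MSTRG.34186 splits into low and high mice in every group, MSTRG.30916 is 0 in some mice of every group, and MSTRG.36629 reaches 32.3 FPKM in males.

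At the other end, the steadiest loci with a mean of at least 5 FPKM were MSTRG.23736, MSTRG.5315, MSTRG.31736, MSTRG.34760 and MSTRG.9819, with within-group SDs from 0.121 to 0.133. MSTRG.34760 ran from 127 to 207 FPKM over all 85 mice, and MSTRG.23736 from 8.11 to 14.2. For all loci with a mean of at least 5 FPKM the median SD was 0.414, against 0.249 for rows with a symbol at the same mean.

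The loci rose and fell together from mouse to mouse. Their median log2 level per library ran from 1.27 in MAD replicate 8 and 1.29 in MWT replicate 1 to 2.44 in FAD replicate 5. Relative to the group means it followed the first principal component of all residuals (13.2% of their variance) with a Pearson r of 0.988. Across the 85 libraries it ran against the median level of rows with a symbol (r = -0.962, Spearman rho -0.969). Both levels come from the same libraries and share their scaling, so this is given as a description. Of the 7333 loci, 4502 had r over 0.5 with the level of the loci and 135 had r under -0.5. Of the 13964 rows with a symbol, 287 had r over 0.5 and 3439 had r under -0.5. The level is the median of these same loci, so a high count among them is partly built in.

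Loci took between 3.89% and 12.2% of a library's FPKM. The group means of this share were 6.19 ± 1.34% in MWT, 6.32 ± 1.34% in MAD, 6.06 ± 1.24% in MWTMR, 6.89 ± 1.22% in MADMR, 8.19 ± 1.33% in FWT, 7.19 ± 1.99% in FAD, 8.13 ± 1.47% in FWTMR and 7.27 ± 0.961% in FADMR (SD). Females were higher than males in every pairing of genotype and feed, and all groups overlapped. Between 4429 and 6722 loci per library reached 1 FPKM. Depth is unknown, because FPKM holds no read counts.

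**Figure D2:**
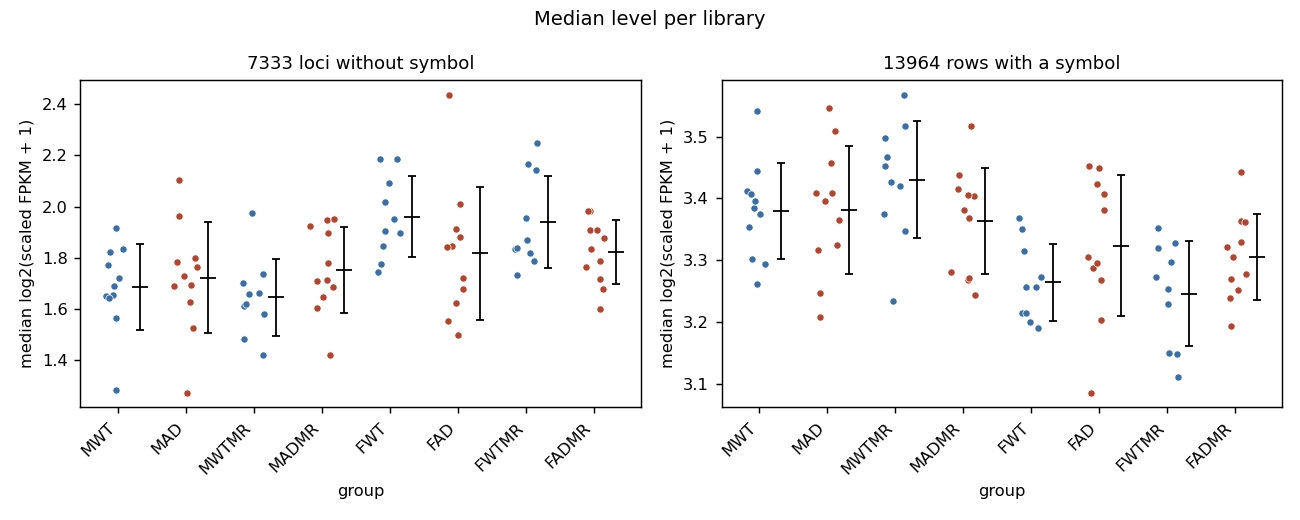
Median log2(scaled FPKM + 1) of each library over the 7333 loci without symbol (left) and the 13964 rows with a symbol (right), by group, with mean and SD in black. FAD replicate 5 is the highest library on the left, at 2.44, and female groups lie above the male groups on the left and below them on the right.

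Markers of the hippocampus were uneven. Neurod6, a transcription factor of its pyramidal neurons, was at 845 FPKM or more throughout, but the lowest values of other markers were far under their medians, 1.88 against 78.6 FPKM for Wfs1, 0.604 against 42.8 for C1ql2, 3.21 against 96.5 for Fibcd1, 0.439 against 22.6 for Lct and 0.524 against 9.28 for Prox1. FADMR replicate 10 stood apart. Its mean log2 level of hippocampus markers was 4.32, against 5.28 to 6.68 in the other 84 libraries, and it had the highest levels of the striatum list (2.47 against at most 2.26) and the plaque microglia list (4.70 against at most 4.21). Without it, 39 loci were called for genotype (10 higher, 29 lower), 53 in females on restricted feed (5 higher, 48 lower) and 200 for genotype by sex. The calls of MSTRG.3052, MSTRG.7954 and MSTRG.10948 for genotype were then lost (adjusted p = 0.0681, 0.0632 and 0.0568), as were those of MSTRG.13783 and MSTRG.7956 in females on restricted feed (0.0985 and 0.0654). The choroid plexus marker Ttr ran from 0.522 to 1283 FPKM. Relative to group means, the level of the loci had r = -0.401 with the mean of 10 hippocampus markers, -0.457 with 19 markers of plaque-associated microglia, and -0.222 with 10 choroid plexus markers. Tissue content was tested only by adding 4 lists as covariates, those of choroid plexus, thalamus, striatum and meninges. The hippocampus and plaque microglia lists were not fitted, so their part in the results was not tested. In bulk tissue, fewer cells of a type and less RNA per cell cannot be told apart.

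Genotype was first compared as the average of AD minus control over both sexes and feeds. With limma and an adjusted p under 0.05, 10 loci rose and 34 fell, together 44 of 7333 (0.60%). Of all 21297 rows tested, 1.7% were called, 1.22% higher and 0.488% lower. Of the loci, 0.136% were called higher and 0.464% lower. The median difference was -0.03 on the log2 scale for the loci and 0.00 for rows with a symbol. Leaving out FAD replicate 5, the library with the highest level of loci, raised the count to 75. The counts depended on the model. With 4 tissue lists as covariates 9 rose and 17 fell, and with array weights 57 rose and 125 fell. With the level of the loci as a covariate, 151 rose and 100 fell, where 846 of all rows were called. That level is the median of the tested loci, so fitting it removes their common shift. The balance of rises and falls under it therefore cannot show whether the loci fell as a set.

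MSTRG.4241, on chromosome 2 between Gm30986 and the joined row Prnp|Prn|Prnd, separated the genotypes completely. In controls it was between 0 and 0.107 FPKM with a median of 0.0224, and 15 of 41 were listed at 0. In AD mice it was between 1.89 and 5.06 FPKM with a median of 3.47. Each AD mouse was above each control, in both sexes and on both feeds.

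The difference of MSTRG.4241 was 2.09 ± 0.0347 (SE) on the log2 scale (limma adjusted p = 1.25e-63, 44 of 44 AD mice above the control median). Within the 4 pairings of sex and feed it ran from 2.03 to 2.16, and the genotype by sex term was 0.06 ± 0.0694 (adjusted p = 0.63). Its feed medians in AD mice were 3.24 (MAD), 3.16 (MADMR), 3.68 (FAD) and 3.52 FPKM (FADMR), with overlapping ranges. The locus entered the filter through AD mice alone, as the only one of the 7333 with no control library at 1 FPKM, so that it had to differ.

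The joined Prnp row beside it ran from 249 to 438 FPKM in controls and from 902 to 1500 in AD mice, again without overlap, and differed by 1.84 ± 0.0423 (adjusted p = 3.66e-53). Gm30986, the row before MSTRG.4241, was low in both, at 0.0405 to 0.444 FPKM in controls and 0.0301 to 0.331 in AD mice. Within groups, MSTRG.4241 did not follow either neighbour (r = 0.05 with the Prnp row, permutation p = 0.626; r = -0.18 with Gm30986, p = 0.104; 85 libraries). Over the same residuals the 5 rows most like MSTRG.4241 were Fmn1 (r = 0.533), Lypd6 (0.499), Hlf (0.484), Stom (0.482) and Tril (0.475). They were picked as the highest r among all rows tested, so their r is high by that choice and was not tested.

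MSTRG.4243 follows the Prnp row by number. In controls it ran from 0 to 1.23 FPKM with a median of 0.0176, and in AD mice from 0 to 8.31 with a median of 0.118. AD mice differed widely among themselves, with 5 of 44 at 0 and 11 at 1 FPKM or more, against 1 control. MSTRG.4243 therefore also passed the filter only through AD mice, the higher group, and its tests were favoured by that choice. The average difference was 0.55 ± 0.125 (adjusted p = 0.0053, 34 of 44 AD mice above the control median). In males on standard feed it was 1.18 ± 0.246 (adjusted p = 0.0164, and 0.0865 without MAD replicate 8). In the other pairings the difference was between 0.08 and 0.63 and did not pass the threshold.

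**Figure D3:**
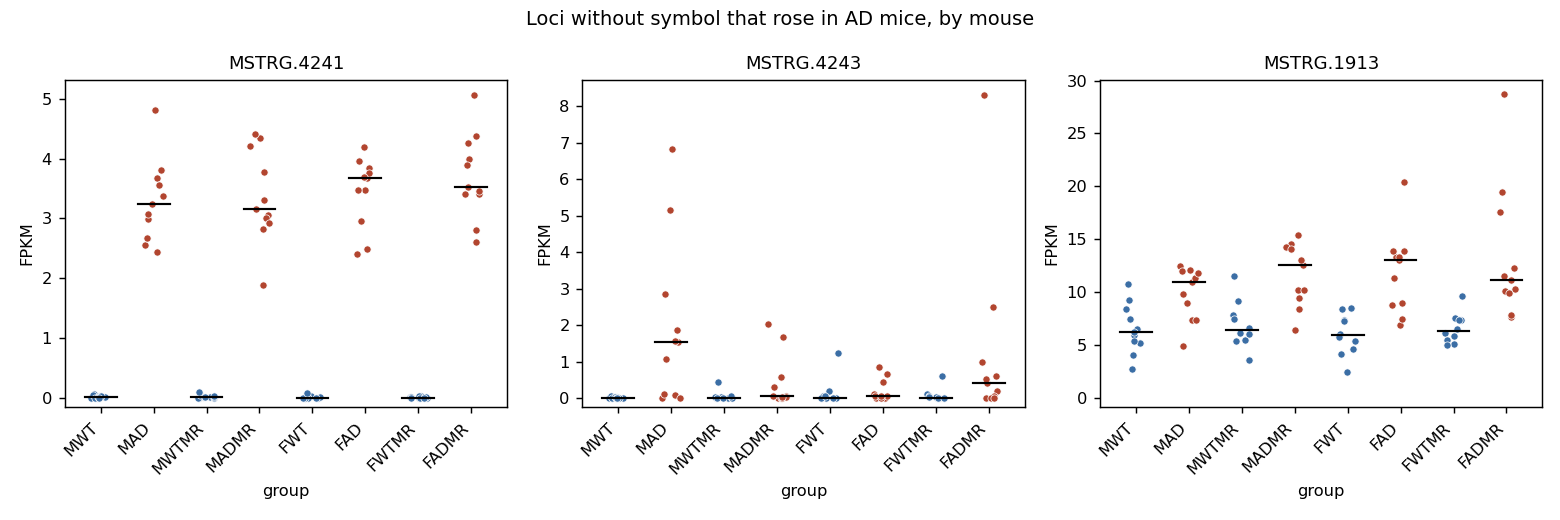
FPKM of MSTRG.4241, MSTRG.4243 and MSTRG.1913 in each mouse (points, blue for control and red for AD mice) by group, with the group median as a black line. MSTRG.4241 lies at or under 0.107 in all controls and at or above 1.89 in all AD mice, whereas the genotypes overlap for the other loci.

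MSTRG.1913, on chromosome 1 between Gm2962 and Fcgr2b, had the next largest rise of the named loci. Controls ran from 2.47 to 11.6 FPKM (median 6.21) and AD mice from 4.94 to 28.8 (median 11.3). The ranges overlapped, but 43 of 44 AD mice were above the control median, and the highest value was that of FADMR replicate 10. Without that library the difference was 0.71. The difference was 0.74 ± 0.0894 (adjusted p = 2.11e-09). It was 0.90 ± 0.18 in females on standard feed (adjusted p = 0.00271) and 0.86 ± 0.18 on restricted feed (0.00239), and in males 0.57 and 0.64, which did not pass. The genotype by sex term, 0.27 ± 0.179, did not pass either (adjusted p = 0.36).

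Fcgr2b encodes the inhibitory receptor for immunoglobulin G of microglia and B cells. Its row was at 0.377 ± 0.104 FPKM in controls and 0.650 ± 0.229 in AD mice (SD, n = 41 and 44), too low to enter the test. Within groups MSTRG.1913 followed it with r = 0.539 and rho = 0.540 (permutation p = 1e-05 each, the smallest that 100000 permutations can give, adjusted over 38 such pairs to 6.33e-05). Without the 2 libraries farthest from the median, r was 0.475.

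Other named rises also followed a neighbour within groups. MSTRG.1214, numbered after Cntnap5a, a gene of the contactin-associated family, had a median of 11.4 FPKM in controls (4.79 to 19.7) and 14.4 in AD mice (6.92 to 25.5). The difference was 0.29 ± 0.0721 (adjusted p = 0.0119), and r with Cntnap5a was 0.453 (rho 0.427, 0.445 without the 2 farthest libraries, adjusted p = 0.000217). Cntnap5a rose as well, by 0.21 ± 0.0502 (adjusted p = 0.0105).

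MSTRG.34606, next to A330040F15Rik on chromosome 19, had medians of 7.73 FPKM in controls (2.95 to 16.9) and 10.7 in AD mice (4.42 to 23.5). Its difference was 0.32 ± 0.085 (adjusted p = 0.0259), and r with A330040F15Rik was 0.577 (rho 0.543, 0.551 without the 2 farthest libraries, adjusted p = 6.33e-05). That row itself differed by 0.07 and did not pass (adjusted p = 0.641).

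The other 5 rises were small. MSTRG.33315 rose by 0.20 ± 0.0399 (adjusted p = 0.000766), MSTRG.17361, before the row of the demethylase gene Fto, by 0.15 ± 0.036 (0.00899), MSTRG.8195, before Cyp4x1, by 0.13 ± 0.0328 (0.0143), MSTRG.15288, after Trim12a|Trim12c, by 0.16 ± 0.0409 (0.0234) and MSTRG.3052 by 0.17 ± 0.0482 (0.0434). Their control and AD ranges overlapped. MSTRG.8195 followed Cyp4x1 with r = 0.50 (rho 0.437, 0.469 without the 2 farthest libraries, adjusted p = 6.33e-05). MSTRG.3052 missed the threshold in 36 of 85 refits without 1 library, with an adjusted p of up to 0.0731 without FWTMR replicate 1.

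Among the falls, a group of neighbouring loci lay around Arpp21, the gene of a cAMP-regulated phosphoprotein of neurons that hosts Mir128-2. MSTRG.19841 is numbered before Arpp21, MSTRG.19843 and MSTRG.19844 between Arpp21 and Mir128-2, and MSTRG.19846 and MSTRG.19847 after Mir128-2. Since Mir128-2 starts within the span of Arpp21, loci numbered between them may be parts of Arpp21 transcripts, which was not tested. Their falls are therefore not separate from that of Arpp21. MSTRG.19844 ran from 6.46 to 24.2 FPKM in controls (median 12.3) and from 4.36 to 20.6 in AD mice (median 9.31). It fell by 0.36 ± 0.0776 (adjusted p = 0.00245, 36 of 44 AD mice under the control median).

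MSTRG.19841 ran from 10.8 to 40.1 FPKM in controls (median 19.1) and from 5.78 to 35.7 in AD mice (median 15.6), and fell by 0.32 ± 0.0869 (adjusted p = 0.0347, and 0.054 without FWTMR replicate 6). MSTRG.19843 fell by 0.26 ± 0.0596 (adjusted p = 0.00523) and MSTRG.19847 by 0.17 ± 0.0432 (0.0148), both chosen for their place beside the other loci. MSTRG.19846 differed by 0.16 ± 0.268 (0.849). Arpp21 itself fell by 0.34 ± 0.0477 (adjusted p = 3.41e-07), from 18.8 ± 2.87 to 14.7 ± 2.85 FPKM (SD). The 4 loci that fell followed Arpp21 within groups with r between 0.565 and 0.699, and MSTRG.19846 had r = -0.225.

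MSTRG.34454, between Cox8a and Atl3 on chromosome 19, had the smallest adjusted p of the named falls. It ran from 3.99 to 10.5 FPKM in controls (median 6.94) and from 2.95 to 9.08 in AD mice (median 5.24). The ranges overlapped, with 38 of 44 AD mice under the control median. It fell by 0.33 ± 0.0616 (adjusted p = 0.000169).

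MSTRG.35536, between Gm5124 and the angiotensin receptor gene Agtr2 on the X chromosome, fell by 0.38 ± 0.0796 (adjusted p = 0.00203), from a median of 9.04 to 6.29 FPKM. MSTRG.34748, after Pip5k1b|Fam122a, fell by 0.34 ± 0.0811 (0.00991), from 23.2 to 17.7 FPKM. MSTRG.29335 fell by 0.31 ± 0.0703 (0.00464), from 4.36 to 3.69 FPKM. MSTRG.22628, numbered after the glutamate receptor gene Gria1, fell by 0.35 ± 0.0864 (0.0131), from 22.6 to 18.8 FPKM. FADMR replicate 10 was at 4.67 FPKM for MSTRG.22628, whose fall was 0.31 without it. In all 4 the ranges of the genotypes overlapped, and no refit without 1 library lost the call.

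The calls of MSTRG.7954 (a fall of 0.43 ± 0.123, adjusted p = 0.0475), MSTRG.31841 (0.35 ± 0.1, 0.0465) and MSTRG.10948 (0.31 ± 0.0874, 0.0404) were less stable. They were lost in 47, 49 and 33 of the 85 refits, with adjusted p-values of up to 0.0718 without FWTMR replicate 5, 0.0695 without MAD replicate 8 and 0.0642 without FWT replicate 1. MSTRG.7954 followed Gm35760, the next row with a symbol, with r = 0.648 (rho 0.645, 0.664 without the 2 farthest libraries, adjusted p = 6.33e-05).

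Within single pairings of sex and feed, few loci were called in males. On standard feed 4 rose and 2 fell, where 0.0657% of all rows were called, 0.0563% higher and 0.00939% lower. On restricted feed 5 rose and 1 fell, where 0.122% were, 0.0986% higher and 0.0235% lower. In females on standard feed 5 rose and 43 fell (0.554% of all rows called, 0.319% higher and 0.235% lower), and on restricted feed 9 rose and 68 fell (1.34%, 0.925% higher and 0.418% lower). The female falls were 0.586% and 0.927% of the loci, above the share of all rows called lower. No locus was among the falls on both feeds (0 shared between the 43 and the 68). Both lists are small parts of the 7333 loci, and the overlap over all rows was not computed. This 0 therefore does not show that the falls depend on feed, and no locus passed the genotype by feed term.

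The median difference over all 7333 loci was -0.14 in females on standard feed and -0.12 on restricted feed, and 0.03 and 0.10 in males. The summed level moved alike, as the group means of the share above show. FAD replicate 5 weighed on these counts. Without it, 445 loci were called in females on standard feed. Without FAD replicate 8, 12 were called. With the level of the loci as a covariate, 16 rose and 31 fell in females on standard feed, and 115 rose and 97 fell on restricted feed. That covariate removes the common shift of the loci. On restricted feed the count ran from 45 without FWTMR replicate 5 to 109 without FWTMR replicate 9.

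Named rises in males included loci that were mostly off. MSTRG.28508, between the serotonin receptor gene Htr2a and Esd, was listed at 0 in 10 of 11 MWT mice and in 1 of 11 MAD mice, whose median was 2.84 FPKM. Its difference was 1.59 ± 0.34 (adjusted p = 0.0231, and 0.0524 without MAD replicate 5). In females the difference was -0.33 on standard and -0.16 on restricted feed, and neither passed. The genotype by sex term was -1.23 ± 0.347 (adjusted p = 0.0553).

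On restricted feed in males, MSTRG.12884, numbered after the glutamate receptor gene Grm7, ran from 15.1 to 22.6 FPKM in MWTMR (median 17.3) and from 20.7 to 62.9 in MADMR (median 29.1). All 11 MADMR mice were above the MWTMR median, with a small overlap. The difference was 0.63 ± 0.141 (adjusted p = 0.0358, lost in 11 refits, up to 0.126 without MADMR replicate 3). MSTRG.25303, after Rgs6, a regulator of G protein signalling, rose by 1.23 ± 0.285 (0.0439, lost in 16 refits, up to 0.149 without MADMR replicate 7). MSTRG.2758, before the coenzyme Q gene Coq4, fell by 0.37 ± 0.087 (0.0466, lost in 35 refits, up to 0.146 without MWTMR replicate 4).

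In females, a run of neighbouring calls lay on chromosome 17 near Pde10a, which encodes a phosphodiesterase of cyclic nucleotides. Between MSTRG.31822 and MSTRG.31844, 15 numbers belong to these loci. MSTRG.31834 fell by 1.05 ± 0.203 in females on standard feed (adjusted p = 0.0017), MSTRG.31830 by 0.72 ± 0.154 (0.00702), MSTRG.31825 by 1.04 ± 0.237 (0.0146), MSTRG.31831 by 1.07 ± 0.249 (0.0174) and MSTRG.31832 by 0.61 ± 0.158 (0.043). In the other 3 pairings none of these 5 passed, with differences between -0.30 and 0.34.

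MSTRG.31831 shows the values behind this. It ran from 6.5 to 15 FPKM in FWT (median 9.46) and from 1.83 to 13.5 in FAD (median 3.59). In FWTMR and FADMR it was at medians of 4.68 and 5.14 FPKM, and in males between 2.9 and 4.47. FWT thus stood above the 7 other groups. Without FAD replicate 8 its adjusted p was 0.0551.

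The 4 loci that end the stretch behaved otherwise. MSTRG.31841 fell by 0.96 ± 0.196 in males on standard feed (adjusted p = 0.013) and by 0.77 ± 0.201 in females on restricted feed (0.0281), with 0.01 and 0.31 in the other pairings. MSTRG.31844 did the same, with falls of 0.84 ± 0.183 (0.0307) and 0.80 ± 0.187 (0.00879). MSTRG.31843 fell by 1.01 ± 0.238 in females on restricted feed (0.00945), and its difference of -0.78 in males on standard feed did not pass (0.308). For MSTRG.31842 no difference passed. Without MAD replicate 8 the male adjusted p of MSTRG.31841 was 0.0504, and that of MSTRG.31844 was lost in 10 refits, reaching 0.119 without MAD replicate 6.

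MSTRG.31844 ran from 0.526 to 4.21 FPKM in MWT (median 3.32) and from 0.218 to 1.9 in MAD (median 1.26). It ran from 1.48 to 6.14 in FWTMR (median 3.45) and from 0.583 to 2.76 in FADMR (median 1.36). In MWTMR, MADMR, FWT and FAD the medians were 1.53, 1.74, 1.78 and 2.39 FPKM. MWT and FWTMR were the high groups here, while FWT was the high one for MSTRG.31831. Within groups, the 4 loci followed each other (r from 0.424 to 0.852), as did the 10 loci from MSTRG.31824 to MSTRG.31839 (0.166 to 0.905), and the median r between the 2 sets was 0.531. Both sets ran slightly against Pde10a (median r of -0.279 and -0.219). MSTRG.31822, which starts the stretch, is in neither set. With it included, the lowest r among the 15 loci was -0.624.

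**Figure D4:**
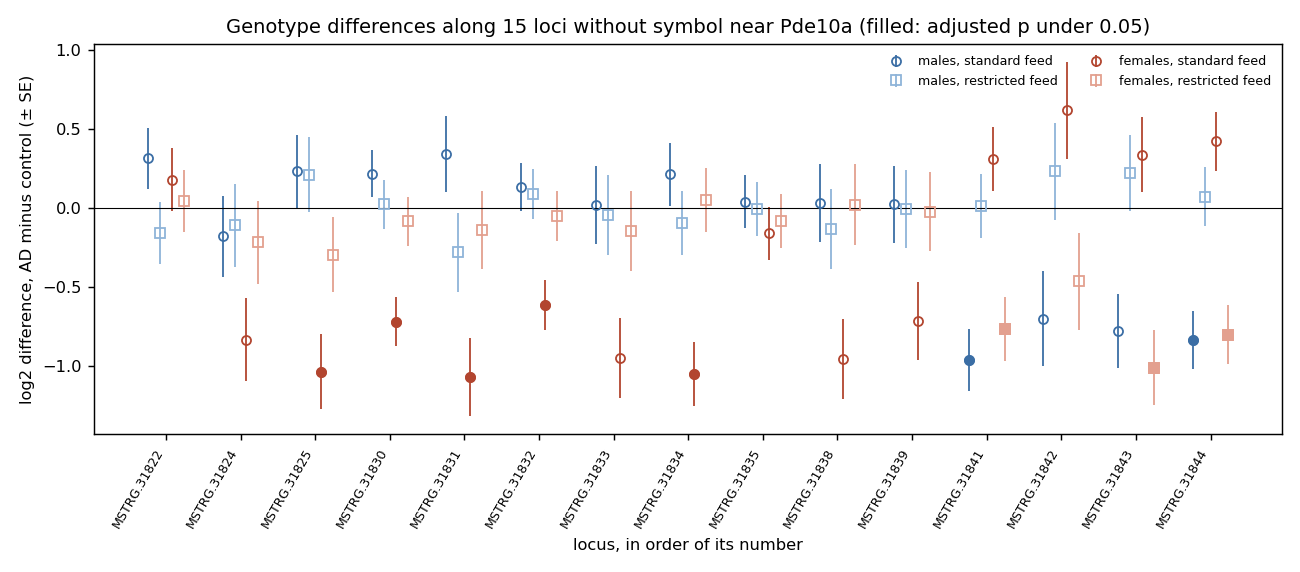
Log2 differences between AD and control mice (vertical axis, bars are SE) for 15 loci in order of number, in the 4 pairings of sex and feed; filled symbols passed the adjusted threshold. MSTRG.31825, MSTRG.31830, MSTRG.31831, MSTRG.31832 and MSTRG.31834 fell in females on standard feed, and MSTRG.31841 and MSTRG.31844 in males on standard feed and females on restricted feed.

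A second female run lay on chromosome 4 between Gm12701 and Gm35760. On restricted feed, MSTRG.7952 fell by 0.78 ± 0.201 (adjusted p = 0.0235), MSTRG.7953 by 0.68 ± 0.182 (0.0344), MSTRG.7954 by 0.89 ± 0.247 (0.0432) and MSTRG.7956 by 0.93 ± 0.232 (0.0175). On standard feed their differences were between -0.58 and -0.21 and did not pass. MSTRG.7956 ran from 2.24 to 10.7 FPKM in FWTMR (median 6.04) and from 0.381 to 5.95 in FADMR (median 2.52), and its adjusted p was 0.0654 without FADMR replicate 10.

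Some female calls rested on loci that are 0 in many mice. MSTRG.35531 was listed at 0 in 72 of 85 libraries, and 6 of the other 13 were FWTMR mice, with up to 2.68 FPKM. It was listed at 0 in every FADMR mouse (limma adjusted p = 0.00146) and in every FWT and FAD mouse. Only 7 libraries outside FWTMR reached 1 FPKM, so the locus passed the filter through its higher group, which favoured this test. MSTRG.31498 had medians of 0 FPKM in FWT and 5.9 in FAD, reaching 6.98 and 58.7. Its difference of 1.98 ± 0.519 (adjusted p = 0.0494) was lost in 53 refits, up to 0.137 without FAD replicate 8. MSTRG.15713 reached 36.9 FPKM in FWT and 0.357 in FAD, with 4 and 5 mice listed at 0 (-1.74 ± 0.444, adjusted p = 0.0407, up to 0.16 without FWT replicate 2). MSTRG.22203, numbered after Fbxw11, a substrate adaptor of a ubiquitin ligase, had medians of 12.8 FPKM in FWT and 7.27 in FAD (-1.35 ± 0.35, 0.0472, lost in 24 refits, up to 0.184 without FAD replicate 11). MSTRG.13783, between Clptm1 and the apolipoprotein genes Apoc2 and Apoc4, had medians of 3.45 FPKM in FWTMR and 7.58 in FADMR (0.87 ± 0.246, 0.0481, lost in 43 refits, up to 0.117 without FADMR replicate 11).

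The genotype difference itself was compared between the sexes. The term, female minus male, passed for 122 loci, all negative (1.66%), where 0.934% of all rows were called and 0.629% lower. Over all loci its median was -0.20, against 0.08 for rows with a symbol (0.01 with scaling factors from rows of 1 gene, under which 5 loci passed). Of those 122, the median r with the level of the loci was 0.740, against 0.621 for all 7333. The count depended on single libraries. It was 3 without FAD replicate 2 and 1065 without FAD replicate 5, and moved by more than 1.5 times in 57 of the 85 refits. With the level of the loci as a covariate no locus passed, where 2 of all rows were called. That covariate removes the common shift of the loci, so it cannot show whether that shift differed between the sexes.

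MSTRG.3407, between the oxysterol-binding protein gene Osbpl6 and Fkbp7, had the largest term, -0.91 ± 0.222 (adjusted p = 0.0401). Its medians were 159 FPKM in MWT, 211 in MAD, 163 in MWTMR and 203 in MADMR, and 364 in FWT, 225 in FAD, 276 in FWTMR and 219 in FADMR. Control females were high, and AD females were near the males. MSTRG.31825 (-0.89 ± 0.236) and MSTRG.3809, between Lin7c and Lgr4 (-0.85 ± 0.226), both had an adjusted p of 0.0466. MSTRG.3809 had medians of 11.1 FPKM in FWT, 7.32 in FAD, 15.5 in FWTMR and 8.11 in FADMR, and between 4.14 and 6.12 in males. All 22 AD females were under the median of their controls. The calls of MSTRG.3407, MSTRG.31825 and MSTRG.3809 were lost in 27, 47 and 45 refits, with adjusted p-values of up to 0.0633 without MAD replicate 2, and 0.0754 and 0.0763 without FWTMR replicate 5.

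Feed was compared as restricted minus standard, averaged over sex and genotype. It gave 9 rises and 5 falls among the loci (0.19%), where 0.117% of all rows were called, 0.0657% higher and 0.0517% lower. MSTRG.18732, between Gm32280 and Gm32335 on chromosome 9, ran from 25.9 to 123 FPKM on standard feed (median 61.3) and from 20.3 to 88.2 on restricted feed (median 47.5). It fell by 0.46 ± 0.0907 (adjusted p = 0.0111, 35 of 42 mice under the median of standard feed).

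A pair of neighbours on the same chromosome fell together. MSTRG.18758 and MSTRG.18759 are numbered between Pih1d2 and Dlat, which encodes a subunit of the pyruvate dehydrogenase complex. MSTRG.18758 ran from 3.59 to 19.1 FPKM on standard feed (median 10.6) and from 3.12 to 13.4 on restricted feed (median 7.85). It fell by 0.38 ± 0.0766 (adjusted p = 0.0123) and MSTRG.18759 by 0.26 ± 0.0498 (0.0102), each in 38 of 42 mice. MSTRG.4646, between Phf20 and Scand1, fell by 0.15 ± 0.033 (0.0246), but it passed the filter only through mice on standard feed, its higher group (24 libraries at 1 FPKM or more, and 6 on restricted feed).

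Among the rises, MSTRG.20425 and MSTRG.20426 are numbered between Nkain2, which encodes a partner of the sodium pump, and Clvs2. MSTRG.20426 had medians of 5.93 FPKM on standard feed (2.77 to 11.0) and 7.63 on restricted feed (5.21 to 10.6), and rose by 0.26 ± 0.057 (adjusted p = 0.0246). MSTRG.20425 rose by 0.28 ± 0.0628 (0.0336), and its adjusted p was 0.0579 without MWT replicate 4. MSTRG.28652, before the transcription factor gene Klf5, rose by 0.34 ± 0.0747 (0.0246), MSTRG.9646 by 0.30 ± 0.0667 (0.0302) and MSTRG.6528, before the splicing regulator gene Ptbp2, by 0.23 ± 0.0535 (0.0364, and 0.0676 without MWTMR replicate 10). Feed groups overlapped at every one of these loci.

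In control mice alone, MSTRG.9646 rose by 0.47 ± 0.096 and MSTRG.1756, before Mrps14, by 0.43 ± 0.088 (adjusted p = 0.04 each), where 0.0141% of all rows were called. Both calls were lost in over 20 refits, with adjusted p-values of up to 0.099 without MWTMR replicate 5 and 0.113 without MWTMR replicate 6. Without MWT replicate 1, 11 loci were called. In AD mice none of the loci passed with limma (0% of all rows). An unadjusted p under 0.05 was found for 387 of 7333 loci and for 1423 of all 21297 rows. The smallest adjusted p was 0.0834 for MSTRG.5593, after the kinase gene Dclk1, which had medians of 28.8 FPKM in MAD and 38.5 in MADMR, and 34.5 in FAD and 37.3 in FADMR (0.26 ± 0.055).

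Whether the feed difference depends on genotype was tested by the genotype by feed term. No locus passed with limma (0.0047% of all rows called). An unadjusted p under 0.05 was found for 392 of 7333 loci and for 1101 of all 21297 rows. MSTRG.4359 (-0.59 ± 0.146), MSTRG.24558 (0.59 ± 0.15) and MSTRG.29550 (-0.30 ± 0.0773) had the smallest p, each 0.581 after adjustment. MSTRG.24558, numbered after the calcium sensor gene Vsnl1, had medians of 1.58 FPKM in MAD and 2.29 in MADMR, 1.54 in FAD and 2.14 in FADMR. All 22 AD mice on restricted feed were above the median of AD mice on standard feed. In controls its medians were 0.971 in MWT and 1.22 in MWTMR, and 3.02 in FWT and 1.78 in FWTMR.

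Sex gave the most calls. In females 3931 loci were higher and 488 lower (53.6% and 6.65%), where 51% of all rows were called, 24.6% higher and 26.5% lower. Rows with a symbol went the other way, with 1301 higher and 5147 lower. The median difference was 0.18 for the loci, and it was between 0.23 and 0.24 under the 3 other scalings. For rows with a symbol it was -0.08, and between -0.02 and -0.01 under those scalings. By RefSeq class, protein-coding rows were higher in 721 and lower in 4207 of 10491 cases, and lncRNA rows higher in 162 and lower in 156 of 793. Rows of several genes joined were mostly lower when called (8.27% higher, 35.4% lower). Pseudogene rows went with the loci, with 31.4% higher, 12.5% lower and a median difference of 0.049. The shift towards females was therefore not limited to loci without symbol. With the level of the loci as a covariate, which removes their common shift, 561 loci were higher and 666 lower.

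**Figure D5:**
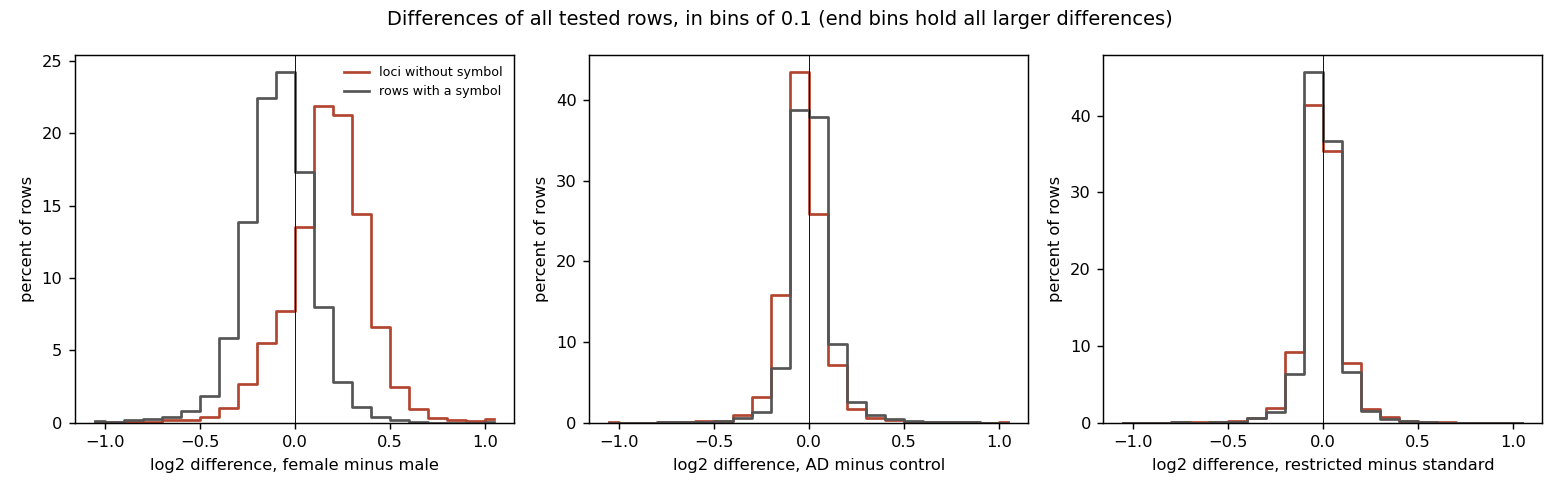
Percent of rows (vertical axis) by log2 difference in bins of 0.1 for the loci without symbol (red) and rows with a symbol (grey), for sex, genotype and feed. The red curve lies to the right of the grey one for sex, with medians of 0.18 and -0.08, and nearly on it for feed.

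The largest sex difference was at MSTRG.36630, between the Y-linked genes Kdm5d and Eif2s3y. It ran from 56.1 to 120 FPKM in 43 males (median 82.2) and was listed at 0 in all 42 females (-6.38 ± 0.0335 on the log2 scale, adjusted p = 2.49e-103). Its neighbour MSTRG.36629 was listed at 0 in 22 of the 43 males and was above 5 FPKM in 20, up to 32.3. The males at 0 were spread over the groups, 6 in MWT, 5 in MAD, 5 in MWTMR and 6 in MADMR. In females MSTRG.36629 was at 0 in 41 of 42, and the highest value was 0.267 FPKM. Both passed the filter through males alone.

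For some other named loci the sexes differed in the number of mice listed at 0. MSTRG.30916, before the kinase gene Pak2, was listed at 0 in 7 of 42 females and in 22 of 43 males, with a highest value of 34.2 FPKM in females and 35.8 in males (1.64 ± 0.47, adjusted p = 0.00267). MSTRG.7180, after Gpr63, was listed at 0 in 13 females and 27 males (2.21 ± 0.654, 0.00348), and MSTRG.10688, after Srrm4, a splicing factor of neurons, in 6 and 16 (1.69 ± 0.509, 0.0042). MSTRG.4885 was listed at 0 in 14 females and 24 males (1.29 ± 0.5, 0.0251) and MSTRG.28804 in 17 and 29 (1.28 ± 0.483, 0.0222). In the opposite direction, MSTRG.8213, before Lurap1, had medians of 21.1 FPKM in females and 147 in males, both reaching 229 (-2.49 ± 0.589, 0.000317). MSTRG.37780 had medians of 30.4 and 51.1 FPKM (-1.21 ± 0.448, 0.0202) and MSTRG.27514 of 2.53 and 3.01, with highest values of 47.6 and 57.6 (-0.95 ± 0.312, 0.00858).

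Neighbouring loci tended to move together within groups. Pairs of loci 1 number apart had a median r of 0.638 within groups (3019 pairs), and pairs of rows with a symbol one of 0.124 (5400 pairs). After the level of the loci was removed, the medians were 0.302 and 0.0561. A locus and a row with a symbol 1 number apart had a median r of 0.0602 after that removal. At 5 numbers apart, pairs of loci still had 0.162. These pairs share their libraries and are given as a description.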

How the data were processed

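Hippocampal RNA of 85 mice was sequenced on the BGI-500, and the authors deposited 1 table of FPKM values. Reads were handled with Trimmomatic 0.38, HISAT2 and StringTie 1.3.4d on GRCm38.p6, per the submitters' processing notes. The version of HISAT2 is not given in the sources used here. Read counts are not part of the table. Low values, scaled by the total FPKM of each library, were compared with the smallest value of their row. They were whole multiples of it no more often than even spacing gives (3.88% against 4%, tolerance 0.02). Libraries of unlike depth have unlike steps, so this comparison could not have recovered depth. Without read counts, depth is unknown.

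Rows with equal symbols were summed. Rows at 1 FPKM or more in at least 10 libraries were kept (21297), scaled by median-of-ratios factors (0.885 to 1.13) and tested as log2(scaled FPKM + 1), which understates changes of low rows. limma 3.58.1 in R 4.3.3 fitted 8 group means with trend and robust settings, and p-values were adjusted by Benjamini-Hochberg over all 21297 rows, with a threshold of 0.05. Printed FPKM values are as deposited. A difference is AD less control, restricted less standard feed, or female less male, and the error beside it is the SE. Correlations used residuals from the group means, with 100000 permutations. The fit was tested on simulated data.

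The loci and lists were chosen with earlier results of these data known. By rule, the text named the 10 loci with the highest mean, the 5 with the largest and the 5 with the smallest SD at a mean of at least 5 FPKM, and those nearest the filter. Among called loci whose higher group averaged 1 FPKM or more, it named the 10 largest rises and falls for genotype, the 5 largest for feed and sex, and the 3 largest elsewhere, or the 3 smallest p where none passed. Neighbours were taken by number, since the table has no coordinates, and the further loci of the runs near Arpp21, Pde10a and Gm35760 were chosen after their values were seen. Sequences came from RefSeq. Each library is labelled as a separate mouse. Alternatives changed the pseudocount, filter, scaling, weights, block, covariates and libraries.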

Additional observations from a re-analysis of the deposited data

Results flagged for a closer look

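The groups of 10 mice (MWTMR, FWT and FWTMR) were searched at each named locus for a single mouse far from the others, and groups of 11 were not. Of 238 such searches, 31 found one (13%). The cut-offs give about 1 in 20 only for independent, normally distributed values. These loci were named for their level, spread or calls in the same libraries, and some hold exact zeros. The 13% therefore has no chance rate to stand against. The search used log2(scaled FPKM + 1), but the values printed are FPKM as deposited. Each is followed by the value of the same group that was nearest after scaling. A mouse can thus stand apart only after scaling, as MWTMR replicate 7 (scaling factor 0.885) did at MSTRG.34760. No explanation was tested.

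In MWTMR, replicate 4 stood apart at MSTRG.35125 (112 against 231), MSTRG.34606 (15.6 against 9.66), MSTRG.9646 (4.26 against 7.78), MSTRG.18732 (20.3 against 40) and MSTRG.8213 (5.25 against 49.1). Replicate 11 did so at MSTRG.14906 (610 against 396), MSTRG.3809 (15.8 against 7.15), and at 0 for MSTRG.25037 (332) and MSTRG.34186 (58.7). Single values were found for MSTRG.4241 in replicate 10 (0.107 against 0.05), MSTRG.4243 in replicate 8 (0.436 against 0.0556), MSTRG.35531 in replicate 6 (1.1 against 0), MSTRG.5315 in replicate 6 (7.15 against 5.34), MSTRG.34760 in replicate 7 (179 against 175) and MSTRG.37780 in replicate 1 (3.32 against 38.2).

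In FWT, replicate 10 was at 0 for MSTRG.7986 (667) and at 47.6 for MSTRG.27514 (3.23). Replicate 4 was at 0 for MSTRG.30916 (26.5), at 0.233 for MSTRG.36534 (35.7) and at 1.23 for MSTRG.4243 (0.195). Replicate 5 was at 0 for MSTRG.25037 (327) and at 3.32 for MSTRG.1756 (5.54), replicate 7 at 0 for MSTRG.10688 (14.7), and replicate 9 at 4.5 for MSTRG.5315 (5.68). Replicate 11 was at 0.0886 for MSTRG.4241 (0.0405) and at 4.48 for MSTRG.3809 (10.4). In FWTMR, replicate 5 was at 47 for MSTRG.7954 (29), 25.8 for MSTRG.15713 (4.04) and 13.9 for MSTRG.10688 (31.6), and replicate 11 at 0.619 for MSTRG.4243 (0.108) and at 0 for MSTRG.4359 (0.449).

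The genotype difference differed between the sexes by its own term at MSTRG.3407 (-0.908 on the log2 scale), MSTRG.31825 (-0.886) and MSTRG.3809 (-0.851). Outside the filter, MSTRG.4244, the number after MSTRG.4243, was listed at 0 in all 41 controls and reached 0.398 FPKM in AD mice (MADMR replicate 1), with 6 of 44 AD mice at 0.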

How the results depend on the processing

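Counts of called loci under other settings are given against those of the report. With a pseudocount of 0.1, females on standard feed had 30 in place of 48. Without a filter, the counts were 3 for males on standard feed, 2 for males on restricted feed, 28 for females on standard feed and 5 for genotype by sex. A filter at 5 FPKM, which leaves fewer loci, gave 14 for the genotype average, 1 for males on standard feed, 16 and 20 for females on standard and restricted feed, 65 for genotype by sex, 7 for feed and 1836 for sex. FPKM as deposited gave 188 for genotype by sex and 0 for feed in controls, and equal totals gave 0 for the latter. Factors from rows of 1 gene gave 2 for males on restricted feed, 23 for females on standard feed, 5 for genotype by sex, 9 for feed and 0 for feed in controls.

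Array weights (0.222 for FAD replicate 5 to 2.149 for FWT replicate 10) gave 182 for the genotype average, 361 for males on restricted feed, 936 and 121 for females, 1616 for genotype by sex, 89 for feed, 3 for feed in AD mice and 101 in controls. With 4 tissue covariates the counts were 26 for the genotype average (9 higher, 17 lower), 28 for females on standard feed, 212 for genotype by sex, 5 for feed and 5 for feed in controls. Fits on only the groups compared gave 3 and 2 in males and 16 in females on standard feed. With the level of the loci as a covariate, added after seeing the data, they were 251 for the genotype average (151 higher, 100 lower), 17 for males on standard feed, 212 for females on restricted feed (115 higher, 97 lower), 0 for genotype by sex, 120 for feed, 8 in AD mice, 51 in controls, 2 for genotype by feed and 1227 for sex. This level is taken from the tested loci, so fitting it removes their common shift. The causes were not tested.

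Same-numbered AD and control mice of the same sex and feed did not deviate together (r from -0.228 to 0.182). Over all groups the correlation within a replicate number was -0.0293. No pairing by number was therefore seen, but these values cannot exclude a shared litter, cage or batch. With a replicate block, males on restricted feed had 3 calls and feed in controls 0, and the genotype average had 41.

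Leaving out 1 library gave 38 to 75 for the genotype average, 4 to 8 and 2 to 9 in males, 12 to 445 and 45 to 109 in females, 3 to 1065 for genotype by sex, 11 to 23 for feed, 0 to 2 in AD mice, 0 to 11 in controls, 0 for genotype by feed and 4192 to 4653 for sex. No named locus changed direction in any setting run. Males on restricted feed had 5 rises and 1 fall, and 5 rises and 0 falls with FPKM as deposited or equal totals. Depth is unknown, so no counting error can be given for loci near 1 FPKM.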

Other observations

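By number, most loci could be placed on a chromosome. The largest counts were 644 on chromosome 2, 523 on chromosome 4 and 470 on chromosome 3, while 5 were on the Y chromosome and 77 were not placed. With a threshold of 1 FPKM, 11 of the 7333 loci reached it in female libraries alone and 3 in male libraries alone (MSTRG.20613, MSTRG.36629 and MSTRG.36630). No locus reached it in control mice alone, in mice on standard feed alone or in mice on restricted feed alone. On average 6091 loci reached it in a female library and 5550 in a male one. Fewer than 10 male libraries reached it at 914 loci, and fewer than 10 female ones at 307. The counts are thus a description, and the share over rows with a symbol was not computed.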
